A study of Sus scrofa with 92 samples.

Results

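The comparison described here set liver biopsies taken 20 hours into full resuscitation (FR20) against biopsies of the same animals taken at 8 hours (FR8) in the 18 Fasted (FS) pigs of the study. Every FS animal had both biopsies, paired by the animal code in the labels, which gave 36 of the 92 libraries and 18 of the 23 animals. No library taken before the injury entered the tests reported here, except 1 alternative fit of all usable libraries, whose count is given in the section on processing. All pigs were juvenile male Yorkshire-Landrace animals kept from food overnight, and all had a splenectomy, a blunt chest injury, a bled-down shock phase and a clamp injury to the liver before limited and then full resuscitation. The labels give 15 FS animals as Lived and 3 as Died. The 5 Carbohydrate Prefed (CPF) pigs, which had the same injury after a sugar syrup, are used only to test whether the FS change differed from theirs, on the 4 CPF animals with usable libraries at both times. Of these CPF animals, 7 and 8 are labelled Died and 13 and 18 Lived, and survival was not separated from feeding in that test. There was no uninjured group, so hours of resuscitation, repeated biopsy, anesthesia and the hour of day cannot be told apart. The hour of day of each biopsy was not given in the sources used here.

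Liver cells keep a circadian clock built from opposing transcription factors. BMAL1 pairs with CLOCK or NPAS2 and activates the PER and CRY genes, which then block it, and also NR1D1 and NR1D2, the nuclear receptors REV-ERBα and REV-ERBβ that repress BMAL1 itself. DBP and its relatives act on D-box elements in the genes the clock drives, and NFIL3 opposes them there. The liver is also the source of most plasma proteins and answers fasting and amino acid shortage through hormones such as FGF21, so clock, secretory, metabolic and matrix genes were followed together.

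Single libraries held 11159561 to 15547165 counts at FR8 and 8540967 to 16613261 at FR20, and totals were higher at FR20 in 7 of 18 animals (2-sided permutation test by sign flips, 100000 resamples, p = 0.367). The factors that TMM scaling (a correction for library composition) gave the libraries were higher at FR20 in 14 of 18 animals (p = 0.0123, adjusted over 4 library measures 0.049). Libraries of animals 17, 19 and 21 had factors of 0.701 to 0.797 at both times, below the 0.874 to 1.37 of the other 15 animals. The FR8 library of animal 11 stood apart in another way. Of 8457 genes with at least 1 CPM (counts scaled to the library's size) in each of the 34 libraries of the other 17 animals, 869 were listed at 0 in that library, in runs of up to 310 neighbouring identifiers and with all 13 mitochondrial protein genes, while 0 of the 8457 were at 0 in its own FR20 library. The same 869 were at 0 in the FR2 (2 hours) library of animal 11. For 1157 genes touched by this gap the FR8 value of animal 11 was not taken as a measurement: their ranges and animal counts cover 17 animals, and where such a gene is named, its fit without animal 11 is given too. The summed levels of marker lists keep the listed 0, as do list counts and list medians unless named otherwise.

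Between FR8 and FR20, edgeR's quasi-likelihood test with a term for each animal called 97 of 12713 genes at an adjusted p under 0.05 and at least a 2-fold change, 79 higher at FR20 (0.621% of those tested) and 18 lower (0.142%). By the adjusted p alone, 174 rose (1.37%) and 190 fell (1.49%), and 2840 genes had an unadjusted p under 0.05. The log2 fold change was above 0 for 6990 of the 12713 genes and below 0 for 5723. Here "called" means both thresholds, and "rose" or "fell" means the adjusted p alone. The log2 fold changes of the called genes ran from 1.01 to 3.37 upward and from -1.03 to -2.71 downward, against a median of 0.04 over all genes tested. No gene, called or not, had FR8 and FR20 levels without overlap, and the called genes moved in their direction in a median of 15 of 18 animals. With the 1157 genes of the gap tested without animal 11, 93 genes were called upward (0.732%) and 21 downward (0.165%), 224 rose (1.76%) and 220 fell (1.73%), and all 97 were still called.

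**Figure D1:**
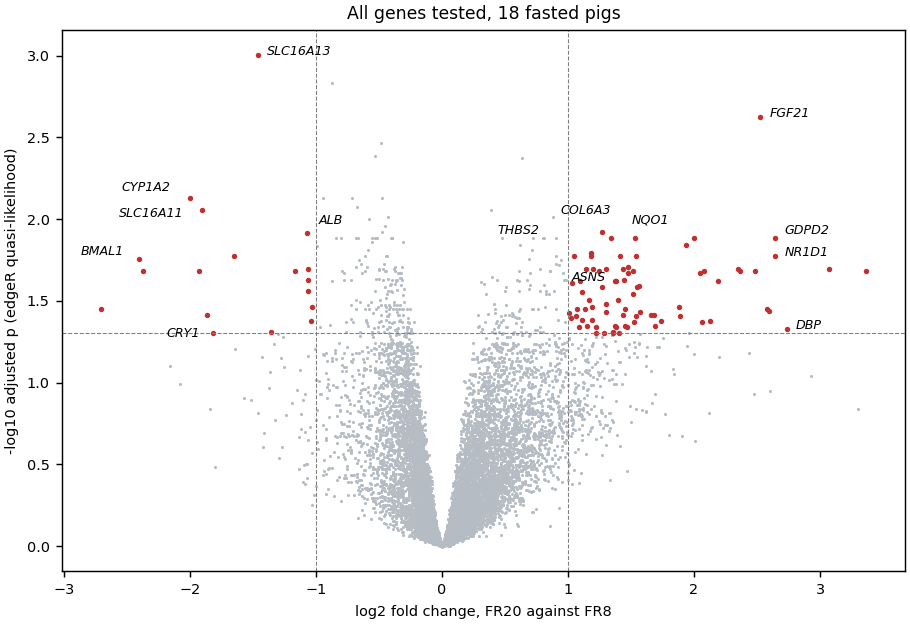
Log2 fold change from FR8 to FR20 (x axis) against the −log10 adjusted p (y axis) of the 12713 genes tested in 18 FS animals. Red points are the 97 called genes and dashed lines mark the thresholds of 2-fold and an adjusted p of 0.05. FGF21 and SLC16A13 stand highest among the called genes, and called points to the right outnumber those to the left.

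The count depended on which animals entered. Left out one at a time, animals 9, 17, 19 and 21 each raised it, to 238, 235, 197 and 213 called genes, leaving out animal 20 gave 128, and leaving out any of the other 13 gave 38 to 63. The fit without each animal was used to describe that animal: of the genes called without it, 100% moved the same way in animals 5 and 22 and 79.7% to 96.2% in 11 others, but 63.3% in animal 20 and only 20.6% in animal 9, 26.0% in animal 17, 22.3% in animal 19 and 22.5% in animal 21. The animals with low scaling factors were thus 3 of the 4 that moved mostly the other way, and animal 9 moved that way with factors of 0.933 and 1.00. Without animals 17, 19 and 21, a set chosen on scaling factors after the data were seen, 637 genes were called in the other 15, 508 upward (4.05%) and 129 downward (1.03%), with 1769 rising (14.1%) and 1357 falling (10.8%) by the adjusted p alone, and 96 of the 97 called genes were among the 637. Since those 3 animals also moved against the rest, that larger count is not independent of direction. The same holds for every list count, fold change and SE given below for the other 15. The part of animals 17, 19 and 21 in each result was not tested beyond these fits. The labels do not settle whether the FR8 and FR20 columns of animals 9, 17, 19 and 21 are the right way round, and this was not tested. All values use the columns as labelled, and an exchange would turn the sign of these animals' changes and alter the fold changes and SE given here. Not every gene ran the other way in them: THBS2, described with the matrix genes, was higher at FR20 in all 4, as in the other 14. THBS2 is 1 of 3 genes that were higher in every animal measured. That set was picked after the values were seen, so the direction of THBS2 in these 4 follows from the choice.

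**Figure D2:**
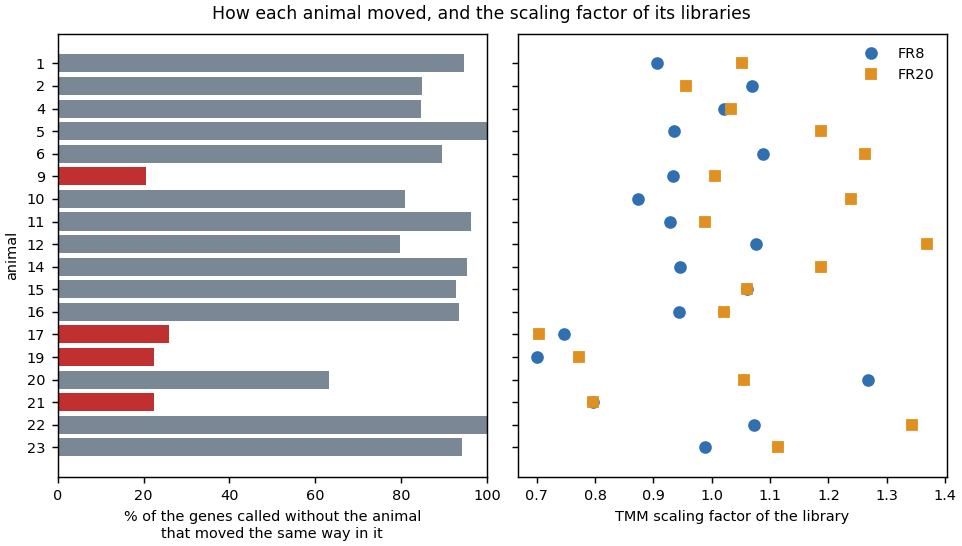
Left, for each of the 18 FS animals (y axis), the percent of genes called in the fit without it that moved the same way in it (x axis). Right, the TMM scaling factors of its FR8 (circles) and FR20 (squares) libraries. Animals 9, 17, 19 and 21 (red) lie between 20.6% and 26.0%, and animals 17, 19 and 21 hold the 6 lowest factors.

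In the clock, NR1D1, NR1D2 and CRY2 of the negative limb and the D-box factor DBP rose, while CRY1 and BMAL1 fell. Of 11 genes tested in the list of the negative limb and D-box factors, 4 were called upward and 1 downward, and the median log2 fold change was 1.41. Of all genes, 0.621% were called upward and 0.142% downward. NR1D1 had a median of 0.379 CPM at FR8 (lowest 0, highest 2.73) and 2.65 CPM at FR20 (lowest 0.2, highest 4.99), and it rose in 15 of 18 animals (log2 fold change 2.64 ± 0.54 (SE), adjusted p = 0.0169). NR1D2, the more abundant of the REV-ERB pair here, had a median of 16.3 CPM at FR8 (lowest 5.98, highest 100.04) and 102 CPM at FR20 (lowest 15.7, highest 158) (log2 fold change 2.37 ± 0.51 (SE), adjusted p = 0.0207). The groups overlapped for both, and for NR1D2 the 3 highest FR8 values and the 4 lowest FR20 values came from animals 9, 17, 19 and 21. DBP, the D-box activator, had a median of 1.11 CPM at FR8 (lowest 0.0958, highest 8.04) and 10.6 CPM at FR20 (lowest 0, highest 20.4) (log2 fold change 2.73 ± 0.73 (SE), adjusted p = 0.047). CRY2, a repressor of BMAL1 complexes, had a median of 2.4 CPM at FR8 (lowest 0.766, highest 10.01) and 13.3 CPM at FR20 (lowest 1.07, highest 28.7) (log2 fold change 2.08 ± 0.45 (SE), adjusted p = 0.0208). CRY1, the other cryptochrome, went the opposite way, with a median of 19.2 CPM at FR8 (lowest 4.43, highest 40.6) and 3.45 CPM at FR20 (lowest 0.491, highest 66.3) and a fall in 14 of 18 animals (log2 fold change -1.81 ± 0.49 (SE), adjusted p = 0.04995). So CRY2 rose while CRY1 fell, and the groups overlapped for each of these genes. Leaving out 1 animal at a time, NR1D1, NR1D2, CRY2 and BMAL1 were called in 18 of 18 fits, but DBP in 5 of 18 (adjusted p up to 0.0942) and CRY1 in 5 of 18 (up to 0.102), the highest without animal 14. In the 15 animals without 17, 19 and 21, 8 of 10 genes tested in the list rose, 7 of them called, and CRY1 fell, against 14.1% of all genes rising and 4.05% called upward in that fit.

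The remaining members of that list did not pass the test in 18 animals. The period gene PER2 had a median of 1.56 CPM at FR8 (lowest 0.383, highest 66.7) and 8.41 CPM at FR20 (lowest 3.12, highest 32.5) (1.46 ± 0.43, adjusted p = 0.0633), and a second PER2 identifier had a median of 0.142 CPM at FR8. PER1, which also answers glucocorticoids, went from a median of 9.34 to 30.6 CPM (0.98 ± 0.43, adjusted p = 0.184). The repressors BHLHE41 (1.41 ± 0.44, adjusted p = 0.0745) and BHLHE40 (0.45 ± 0.16, adjusted p = 0.11) had positive log2 fold changes, and that of HLF, a D-box relative of DBP, was 0.02 ± 0.37, adjusted p = 0.987.

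In the list of the positive limb and NFIL3, 1 of 6 genes tested passed, and it was called downward, with a list median of -0.50. BMAL1, the core activator, had a median of 6.73 CPM at FR8 (lowest 0.59, highest 10.9) and 0.965 CPM at FR20 (lowest 0.113, highest 6.67) and fell in 15 of 18 animals (log2 fold change -2.41 ± 0.49 (SE), adjusted p = 0.0175). Its partner NPAS2 had a median of 5.87 CPM at FR8 (lowest 1.1, highest 17.8) and 2.45 CPM at FR20 (lowest 0.246, highest 9.31), with a log2 fold change of -1.33 ± 0.38, adjusted p = 0.0584, and its other partner CLOCK had -0.29 ± 0.28, adjusted p = 0.584. RORA, a receptor that activates BMAL1, had a log2 fold change of 0.30 ± 0.12, adjusted p = 0.161, and NFIL3 had -0.50 ± 0.21, adjusted p = 0.174. Among 8 genes tested in the list of clock output genes, none passed and the median was 0.89 (0.80 with the genes of the gap tested without animal 11). The deubiquitinase USP2, one of the genes of the gap, had a median of 3.96 CPM at FR8 (lowest 0.665, highest 71.7) and 27 CPM at FR20 (lowest 2.88, highest 60.5), with 2.44 ± 0.73, adjusted p = 0.0659 in 18 animals and 2.18 ± 0.67, adjusted p = 0.0661 without animal 11. ALAS1, the first enzyme of heme synthesis, went from 334 to 957 CPM (1.17 ± 0.39, adjusted p = 0.0903).

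The 4 animals that moved against the rest did so in these genes. NR1D2 was at 100.04 and 28.7 CPM at FR8 and FR20 in animal 9, 90.5 and 33.6 CPM in animal 17, 35.6 and 15.7 CPM in animal 19 and 98.1 and 45.9 CPM in animal 21. BMAL1 was at 0.59 and 4.6 CPM in animal 9, 2.25 and 6.67 CPM in animal 17, 3.05 and 1 CPM in animal 19 and 3.29 and 5.1 CPM in animal 21. So NR1D2 was lower at FR20 in all 4, and BMAL1 was higher at FR20 in 3 of them and lower in animal 19. In the 15 animals without 17, 19 and 21, the log2 fold changes were 2.97 ± 0.37 for NR1D2 and -2.86 ± 0.44 for BMAL1. That set was chosen after the data were seen and left out animals that moved mostly the other way. Its larger folds and smaller SE are therefore not separate evidence. At FR2, on each library's own total, the FS median of NR1D2 was 30.3 (11.1 to 177) CPM, against 16.4 (6.32 to 93.4) at FR8 and 112 (12.1 to 209) at FR20. The FR2 median of BMAL1 was 5.52 (0.59 to 10.03) CPM, against 6.71 (0.551 to 11.7) and 0.989 (0.117 to 4.69). By these medians, FR2 lay nearer to FR8 than to FR20 for NR1D2 and BMAL1. The period genes were different: the median of PER1 was 53.7 (6.35 to 130.1) CPM at FR2, 8.56 (2.54 to 148) at FR8 and 36.1 (9.22 to 106) at FR20. That of PER2 was 11.1 (1.09 to 38.8) CPM at FR2, 1.79 (0.356 to 53.1) at FR8 and 8.65 (3.14 to 25.9) at FR20. For both, the FR2 median lay nearer to that of FR20.

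**Figure D3:**
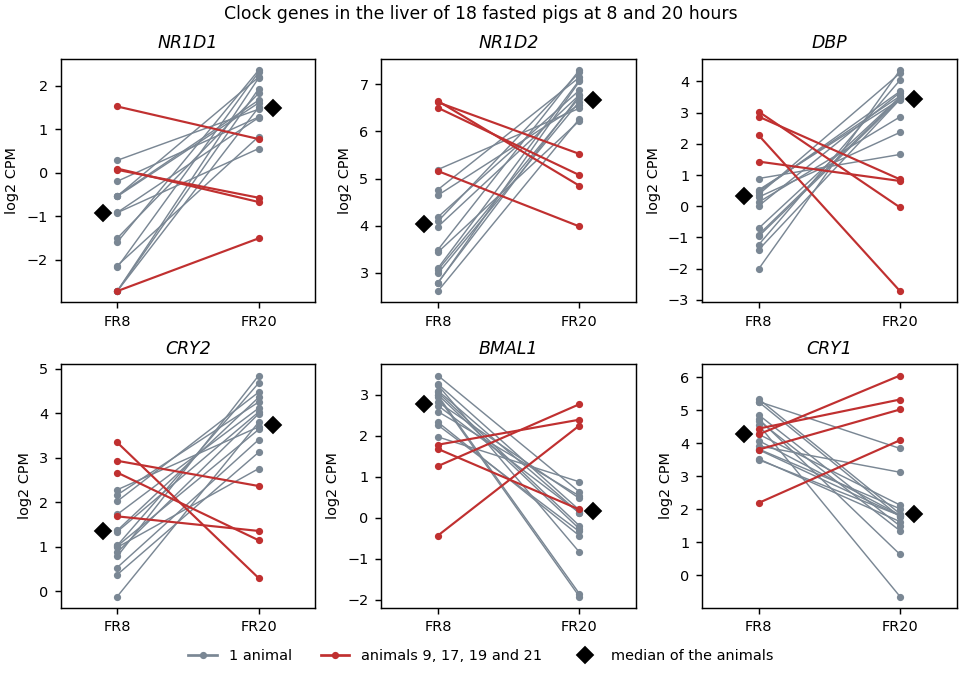
Log2 CPM (prior count of 2, y axis) of 6 clock genes at FR8 and FR20 in the 18 FS animals, 1 line an animal, with diamonds for the medians. NR1D1, NR1D2, DBP and CRY2 rise and BMAL1 and CRY1 fall in most animals, while animals 9, 17, 19 and 21 (red) run mostly the other way.

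FGF21, the liver hormone of fasting and amino acid stress, was the called gene with a symbol that rose with the smallest p. Its median was 2 CPM at FR8 (lowest 0.201, highest 13.8) and 11 CPM at FR20 (lowest 2.74, highest 148), and it was higher at FR20 in 16 of 18 animals (log2 fold change 2.53 ± 0.35 (SE), adjusted p = 0.00236), the exceptions being animals 9 and 21. The highest FR20 value came from animal 12 and the groups overlapped. Among 13 genes tested in the list of ATF4 targets of the amino acid stress response, 2 were called upward (0.621% of all genes were), FGF21 and ASNS, and the median was 0.40. ASNS, asparagine synthetase, lies in the gap of animal 11. In the other 17 animals its median was 16 CPM at FR8 (lowest 8.35, highest 43) and 42 CPM at FR20 (lowest 11.9, highest 115), and it was higher at FR20 in 17 of 17, animals 9, 17, 19 and 21 included. Its log2 fold change was 1.37 ± 0.31, adjusted p = 0.024 with the listed 0 kept and 1.21 ± 0.17, adjusted p = 0.00192 without animal 11, and it was called in 16 of 18 fits without 1 animal. PSAT1, an enzyme of serine synthesis, had 1.55 ± 0.47, adjusted p = 0.0695, while the ATF4 gene itself had 0.04 ± 0.16, adjusted p = 0.916 and TRIB3, another target, 0.05 ± 0.26, adjusted p = 0.942. Of 23 genes tested in the list of fatty acid oxidation and ketogenesis, FGF21 alone passed in 18 animals, with a list median of 0.32. Without animals 17, 19 and 21, 9 of the 23 rose (5 called) and 1 fell (1 called). In that fit, 14.1% of all genes rose (4.05% called) and 10.8% fell (1.03% called).

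Genes of transport and xenobiotic metabolism moved in both directions. SLC16A13, a member of the monocarboxylate transporter family, had a median of 16.8 CPM at FR8 (lowest 4.59, highest 53.3) and 5.3 CPM at FR20 (lowest 1.31, highest 11) and fell in 16 of 18 animals (log2 fold change -1.46 ± 0.18 (SE), adjusted p = 0.00099), the smallest p of all genes. SLC16A11, of the same family and with the neighbouring identifier, fell from a median of 1.02 to 0.248 CPM (log2 fold change -1.90 ± 0.33 (SE), adjusted p = 0.00876). Both fell in animals 17 and 21 as well. In the list of drug metabolism and nuclear receptors, 1 of 11 genes was called upward and 1 downward, and the median was -0.07 (-0.20 with the genes of the gap tested without animal 11). CYP1A2, a cytochrome P450 of hepatocytes, had a median of 97.3 CPM at FR8 (lowest 46.5, highest 1036) and 23.2 CPM at FR20 (lowest 6.16, highest 408) and fell in 16 of 18 animals (log2 fold change -1.998 ± 0.33 (SE), adjusted p = 0.00744), and it was higher at FR20 in animals 9 and 11. CYP2B6, a P450 driven by the receptor CAR, had a median of 671 CPM at FR8 (lowest 72.9, highest 3034) and 2024 CPM at FR20 (lowest 244, highest 4318) and rose in 15 of 18 animals (log2 fold change 1.37 ± 0.36 (SE), adjusted p = 0.0448), though it was called in 5 of 18 fits without 1 animal (adjusted p up to 0.0884, without animal 1). NQO1, the quinone reductase that serves as a marker of NRF2 activity, had a median of 118 CPM at FR8 (lowest 18.6, highest 378) and 416 CPM at FR20 (lowest 49.4, highest 1501) and rose in 16 of 18 animals (log2 fold change 1.53 ± 0.30 (SE), adjusted p = 0.0131), and it was lower in animals 9 and 20. PGD of the pentose phosphate pathway also rose (0.68 ± 0.15, adjusted p = 0.0237), and these were 2 of the 14 genes tested in the list of antioxidant and NRF2 targets, where the median was 0.37. The others of that list did not pass, for example GSR, glutathione reductase (0.59 ± 0.19, adjusted p = 0.0846), and GCLC of glutathione synthesis (1.125 ± 0.42, adjusted p = 0.125).

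**Figure D4:**
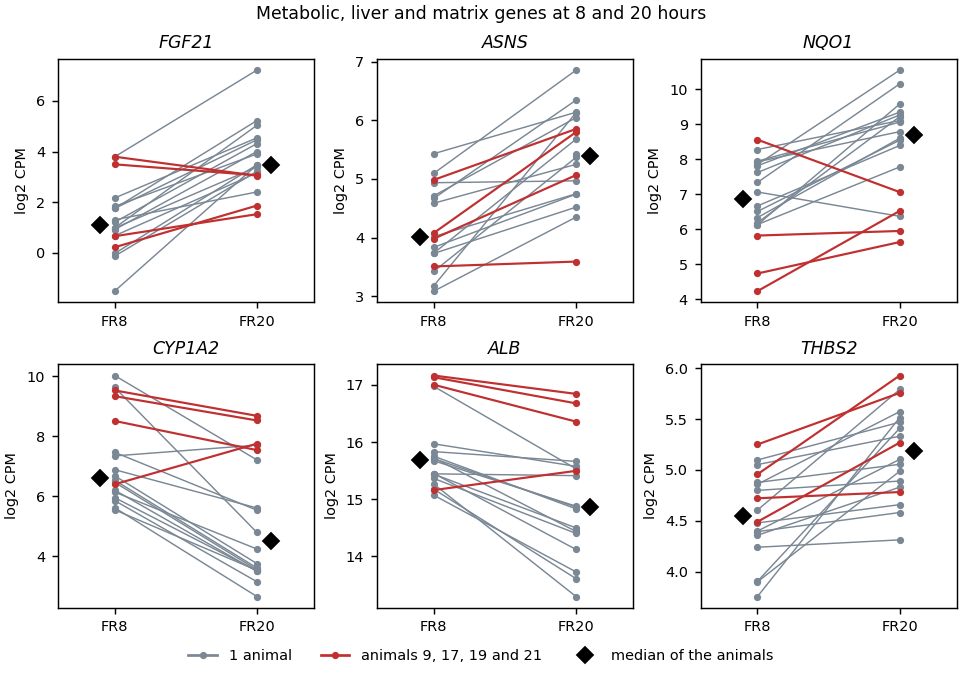
Log2 CPM (prior count of 2, y axis) of FGF21, ASNS, NQO1, CYP1A2, ALB and THBS2 at FR8 and FR20, 1 line an animal, with diamonds for the medians and red lines for animals 9, 17, 19 and 21. ASNS shows 17 animals at FR8, since the FR8 library of animal 11 was not taken as a measurement for it. ASNS and THBS2 rise in the red animals too, and ALB and CYP1A2 fall in 3 of the 4.

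Several of the most abundant secreted proteins of hepatocytes were lower at FR20. ALB, serum albumin, had a median of 52916 CPM at FR8 (lowest 34394, highest 146964) and 29954 CPM at FR20 (lowest 10064, highest 117603) and fell in 17 of 18 animals (log2 fold change -0.84 ± 0.15 (SE), adjusted p = 0.0131), and it was higher only in animal 9. At FR8, animals 10, 17, 19 and 21 had the highest values, from 128718 CPM, while the other 14 ended at 64163 CPM. TF, transferrin, went from a median of 10555 to 6911 CPM (-0.72 ± 0.16, adjusted p = 0.0236) and APOE, a lipoprotein ligand, from 15960 to 10650 CPM (-0.50 ± 0.11, adjusted p = 0.0203). HRG, a histidine-rich plasma glycoprotein, was called downward, with a median of 3642 CPM at FR8 (lowest 931, highest 17296) and 1982 CPM at FR20 (lowest 534, highest 11137) (log2 fold change -1.06 ± 0.24 (SE), adjusted p = 0.0236), in 14 of 18 fits without 1 animal (adjusted p up to 0.0549, without animal 1). In the hepatocyte list, 3 of 13 genes tested fell, ALB and TF among them (1.49% of all genes fell), none rose, and the median was -0.20. The asialoglycoprotein receptor genes ASGR1 (-0.06 ± 0.13, adjusted p = 0.82) and ASGR2 (0.03 ± 0.10, adjusted p = 0.888), the transcription factor HNF4A (-0.07 ± 0.13, adjusted p = 0.821) and the fetuin gene AHSG (-0.20 ± 0.13, adjusted p = 0.351) did not pass. The summed level of the hepatocyte list, on library totals, went from 98771 CPM at FR8 (75032 to 181433) to 72893 CPM at FR20 (40921 to 148020). This sum includes ALB, whose own TMM-scaled medians were 52916 and 29954 CPM, so it is not separate from the fall of ALB. Of 21 genes tested in the list of apolipoproteins and lipid droplets, APOE alone passed, and the median was 0.30. APOC3, an inhibitor of lipoprotein lipase in the gap, had -0.22 ± 0.48, adjusted p = 0.831 with the listed 0 and -0.39 ± 0.09, adjusted p = 0.0218 without animal 11, and was lower in 17 of 17 animals. Of the 7 members of that list in the gap, G0S2, an inhibitor of lipolysis (0.87 ± 0.22, adjusted p = 0.0398), and MTTP, which loads lipid onto apolipoprotein B (0.50 ± 0.14, adjusted p = 0.0441), also passed without animal 11, both upward. In these bulk samples, fewer cells of a type and less RNA per cell cannot be told apart.

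Few acute phase genes passed the test. Of 20 genes tested among positive acute phase proteins, which rise in inflammation, none passed in 18 animals and the median was -0.14. Without animals 17, 19 and 21, 6 of the 20 fell (3 called) and 1 rose (1 called). In that fit, 10.8% of all genes fell (1.03% called) and 14.1% rose (4.05% called). FGA, a fibrinogen chain, had a median of 2637 CPM at FR8 (lowest 754, highest 4744) and 863 CPM at FR20 (lowest 520.0, highest 3291) (-1.26 ± 0.35, adjusted p = 0.0527, and adjusted p = 0.0485 with the gap handled as above, a call). One identifier of CRP, C-reactive protein, had -0.89 ± 0.37, adjusted p = 0.163 and the other 0.04 ± 0.18, adjusted p = 0.925. Among 14 genes tested of the negative acute phase and export proteins, the 2 that fell were ALB and TF, with a median of -0.18. In the list of coagulation and fibrinolysis, F10, coagulation factor X (-0.43 ± 0.09, adjusted p = 0.0169), and CPB2, an inhibitor of fibrinolysis (-0.41 ± 0.10, adjusted p = 0.0347), fell, and VWF, the platelet adhesion factor of endothelium (0.77 ± 0.19, adjusted p = 0.0355), rose, out of 17 tested with a median of 0.05. None of 19 complement genes passed in 18 animals, and C4BPA, a chain of the C4b-binding protein in the gap, rose without animal 11 (0.66 ± 0.18, adjusted p = 0.0434).

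Genes of the unfolded protein response, which help secretory proteins fold, mostly had negative log2 fold changes, but 1 of 22 tested passed. The list median was -0.64, and 19 of the 22 were below 0, as were 5723 of all 12713 genes. SEC61A1, the translocon channel, went from a median of 285 to 157 CPM (-0.68 ± 0.17, adjusted p = 0.0355). The endoplasmic reticulum genes CRELD2 (491 to 114 CPM, -1.57 ± 0.58, adjusted p = 0.124) and SDF2L1 (247 to 74.9 CPM, -1.27 ± 0.39, adjusted p = 0.0707) had the largest values and did not pass, and neither did the chaperone HSPA5 (-0.77 ± 0.42, adjusted p = 0.293). The median over the list ran from -1.89 to 1.23 across animals and was below 0 in 12 of 18. Without animals 17, 19 and 21, 15 of the list's genes fell and 5 of them were called, with a median of -0.84, in a fit where 10.8% of all genes fell and 1.03% were called downward.

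A part of the matrix genes rose. In the list of extracellular matrix and fibrosis, 7 of 23 genes tested rose (30.4% against 1.37% of all genes), none fell, 1 was called, and the median was 0.58. COL6A3, a type VI collagen chain, had a median of 32.1 CPM at FR8 (lowest 19.4, highest 58.7) and 54.4 CPM at FR20 (lowest 26.3, highest 119) (log2 fold change 0.88 ± 0.15 (SE), adjusted p = 0.00975), and DCN, the proteoglycan decorin, one of 20.02 CPM at FR8 (lowest 5.74, highest 57.8) and 35.7 CPM at FR20 (lowest 15.6, highest 74.3) (log2 fold change 0.85 ± 0.20 (SE), adjusted p = 0.0286). THBS2, thrombospondin 2, had a median of 23.3 CPM at FR8 (lowest 13.4, highest 37.9) and 36.3 CPM at FR20 (lowest 19.7, highest 60.7) and was higher at FR20 in 18 of 18 animals (log2 fold change 0.62 ± 0.12 (SE), adjusted p = 0.0144), including the 4 in which the clock genes ran the other way. VCAN, the proteoglycan versican, was called upward (1.03 ± 0.26, adjusted p = 0.0405; in 5 of 18 fits without 1 animal, adjusted p up to 0.0771 without animal 1), and it also stands in the list of neutrophil and monocyte markers. The collagen genes COL3A1 (369 to 659 CPM, 0.76 ± 0.20, adjusted p = 0.0479) and COL5A1 (0.61 ± 0.16, adjusted p = 0.0403) and POSTN, periostin (0.53 ± 0.13, adjusted p = 0.0385), were the others that rose. COL1A2, a type I collagen chain in the gap, had 1.21 ± 0.47, adjusted p = 0.139 with the listed 0 and 1.02 ± 0.28, adjusted p = 0.0462 without animal 11. Without animals 17, 19 and 21, 12 of the 23 rose and 5 were called, beside 14.1% and 4.05% of all genes. FN1, fibronectin (-0.03 ± 0.10, adjusted p = 0.906), and TGFB1 (0.21 ± 0.15, adjusted p = 0.414) did not pass.

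Cell type markers were read beside these results. In the list of stellate cells and fibroblasts, the matrix-making cells of liver, DCN and COL3A1 rose among 17 tested. With the listed 0 of animal 11 kept, all 17 had positive log2 fold changes (6990 of all 12713 genes did), and the median was 0.29. With the genes of the gap, 5 of them in this list, tested without animal 11, the median was 0.23. The summed level of the list, on library totals and with the listed 0 of animal 11 kept, went from 1022 CPM at FR8 (598 to 1656) to 1760 CPM at FR20 (776 to 3714). Of the markers of neutrophils and monocytes, 2 of 13 tested were called upward (0.621% of all genes were), VCAN and MPO, the granule enzyme myeloperoxidase, with a median of 0.11 over the list. Log2 fold changes were above 0 for 8 of the 13 and below 0 for 5. Without animals 17, 19 and 21, 2 of the 13 rose and 3 fell, with 1 called upward and 3 downward. In that fit, 14.1% of all genes rose (4.05% called) and 10.8% fell (1.03% called). MPO was at a median of 0.209 CPM at FR8 (lowest 0, highest 0.722) and 0.631 CPM at FR20 (lowest 0, highest 3.51) (1.45 ± 0.35, adjusted p = 0.0352), at most a few counts in many libraries, and it was called in 8 of 18 fits without 1 animal (adjusted p up to 0.076, without animal 1). The summed level of that list went from 32.5 CPM at FR8 (15.5 to 71.1) to 42.8 CPM at FR20 (22.8 to 97.5), with CSF3R and MMP8 at 3 counts or fewer in each library. For endothelium, VWF rose among 16 tested, and ENG (0.30 ± 0.10, adjusted p = 0.0922) and EGFL7 (-0.17 ± 0.12, adjusted p = 0.436), the most abundant, did not pass. No marker passed among 8 tested of Kupffer cells and macrophages (summed from 431 CPM at FR8 (321 to 836) to 523 CPM at FR20 (291 to 702), CLEC4F at 3 counts or fewer), 17 of T and NK cells, 8 of B and plasma cells, 6 of cholangiocytes, 5 of erythroid cells or 15 of striated muscle. PLIN1, a lipid droplet protein of adipocytes, was called upward (1.65 to 4.95 CPM, 1.52 ± 0.39, adjusted p = 0.0427; in 6 of 18 fits without 1 animal, adjusted p up to 0.0884 without animal 1), 1 of the 3 tested in its list, whose most abundant member KRT8 had -0.59 ± 0.44, adjusted p = 0.451. The part of cell makeup in the matrix and albumin results was not tested.

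Genes of DNA replication had mostly positive log2 fold changes, and few passed the test. Of 20 genes tested in the list of cell cycle entry and DNA replication, 2 were called upward, against 0.621% of all genes. Positive log2 fold changes were seen for 19 of the 20, against 6990 of all 12713 genes, and the list median was 0.83. MCM2, a subunit of the replicative helicase, had a median of 3.09 CPM at FR8 (lowest 2.04, highest 13.6) and 10.5 CPM at FR20 (lowest 0.833, highest 30.1) and rose in 13 of 18 animals (log2 fold change 1.41 ± 0.38 (SE), adjusted p = 0.04995). CHAF1B, of the chromatin assembly factor, had a median of 0.782 CPM at FR8 (lowest 0.228, highest 2.36) and 2.24 CPM at FR20 (lowest 0.238, highest 5.57) (log2 fold change 1.30 ± 0.32 (SE), adjusted p = 0.0369). Leaving out 1 animal at a time, MCM2 was called in 4 of 18 fits (adjusted p up to 0.104) and CHAF1B in 7 of 18 (up to 0.0798), both highest without animal 14. In the 15 animals without 17, 19 and 21, 12 of the 20 rose and 10 were called, where 14.1% of all genes rose and 4.05% were called upward. E2F1, the S phase transcription factor (1.57 ± 0.43, adjusted p = 0.0507), and UHRF1 (1.27 ± 0.35, adjusted p = 0.0523) missed the threshold in 18 animals and passed it once the genes of the gap were tested without animal 11, with adjusted p = 0.0465 and 0.0481. BRCA1, of DNA repair, was called upward with a median of 0.921 CPM at FR8 (lowest 0.382, highest 2.58) and 2.44 CPM at FR20 (lowest 0.3, highest 8.68) (log2 fold change 1.19 ± 0.24 (SE), adjusted p = 0.0169), as was CENPH of the kinetochore (0.997 to 2.49 CPM, 1.18 ± 0.24, adjusted p = 0.0161). In the mitosis list none of 28 genes tested passed and the median was 0.08. NDC80 of the kinetochore had 0.77 ± 0.35, adjusted p = 0.2. The difference between the 2 lists was not tested.

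Other lists held few genes that passed in 18 animals. Without animals 17, 19 and 21, more members of some lists passed. Of the bile acid list 10 of 15 rose (4 called), and of the cholesterol list 7 of 20 rose (6 called). Of the proteasome list 13 of 17 fell, and of ribosome biogenesis 12 of 28 fell and 1 rose, with 0 called in both. In that fit, 14.1% of all genes rose (4.05% called) and 10.8% fell (1.03% called). The values that follow are of all 18 animals unless named otherwise. EGR2, an immediate early transcription factor, was called upward (0.657 to 2.27 CPM, 1.38 ± 0.31, adjusted p = 0.024; in 15 of 18 fits without 1 animal, adjusted p up to 0.0558 without animal 5), 1 of 17 in its list. NR0B2, the bile acid responsive repressor SHP, rose (31.7 to 42.1 CPM, 0.70 ± 0.16, adjusted p = 0.0252), 1 of 15 in the list of bile acid synthesis and transport, where the median was 0.53 and CYP7A1, the rate-limiting enzyme of bile acid synthesis, had -0.36 ± 0.59, adjusted p = 0.771. GCKR, the regulator of glucokinase (-0.46 ± 0.10, adjusted p = 0.0237), and KHK, ketohexokinase (-0.42 ± 0.11, adjusted p = 0.04995), fell among 18 genes of liver glycolysis. SLC25A15, the ornithine carrier of the urea cycle, fell (-0.61 ± 0.12, adjusted p = 0.0169), 1 of 29 in its list. The proteasome list had negative log2 fold changes for all 17 genes tested (5723 of all 12713 genes had them) with a median of -0.23, but PSMD3 was the only 1 that fell (-0.38 ± 0.09, adjusted p = 0.0319). NDUFA8, a complex I subunit, fell (-0.25 ± 0.07, adjusted p = 0.0492) among 24 respiratory chain genes, P4HA1, a collagen hydroxylase, rose (0.56 ± 0.14, adjusted p = 0.0377) among 20 hypoxia targets, and TNFAIP3, a brake on NF-κB, rose (0.57 ± 0.15, adjusted p = 0.0492) among 26 genes of innate sensing. In the list of cholesterol synthesis and uptake none of 20 passed, with a median of 0.53, and MVK, mevalonate kinase, had the largest value (43 to 149 CPM, 1.26 ± 0.44, adjusted p = 0.105). None passed among 20 interferon-stimulated genes, 17 chemokine and adhesion genes, 13 genes of the interleukin 6, interleukin 10 and STAT3 axis, 15 apoptosis and p53 targets, 19 heat shock proteins, 19 cytosolic ribosomal proteins, 28 genes of ribosome biogenesis, 15 of gluconeogenesis, 16 of fatty acid synthesis, 14 glucocorticoid targets, 16 of IGF and insulin signalling or 10 of heme and metal handling. Of these, GRB10, an adaptor of insulin signalling in the gap, rose without animal 11 (0.36 ± 0.09, adjusted p = 0.0401) and, of the respiratory chain, SDHD fell (-0.31 ± 0.07, adjusted p = 0.0301).

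**Figure D5:**
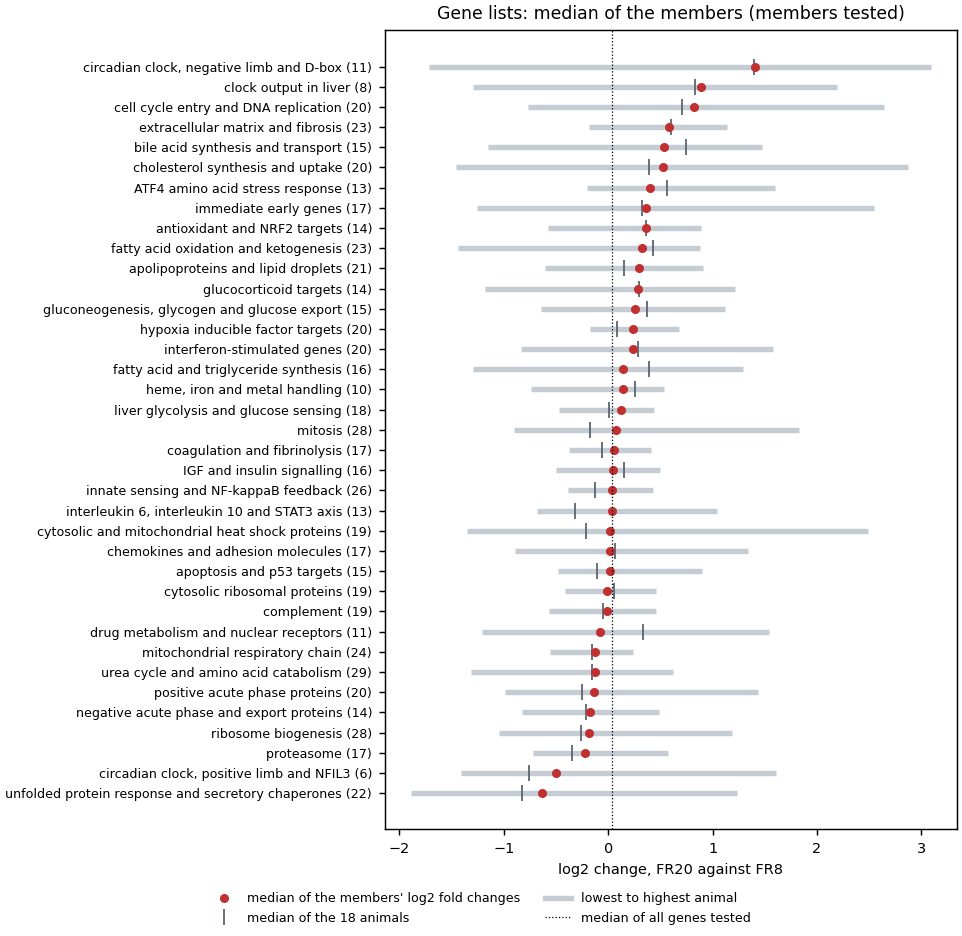
Median log2 fold change from FR8 to FR20 (red points, x axis) of each pathway list (y axis, with the number of members tested), the median over animals of the list's median change (ticks) and the lowest to the highest animal (bars). The dotted line is the median of all genes, 0.04. The negative limb of the clock lies highest at 1.41 and the unfolded protein response lowest at -0.64, and the bars of both cross 0.

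The remaining genes named for the smallest p or the largest fold were these. GDPD2, a glycerophosphodiester phosphodiesterase family gene in the gap, had a median of 0.802 CPM at FR8 (lowest 0.135, highest 8.78) and 6.72 CPM at FR20 (lowest 0.8, highest 17.3) in 17 animals (log2 fold change 2.64 ± 0.51 (SE), adjusted p = 0.0131 in 18, 2.50 ± 0.49, adjusted p = 0.0128 without animal 11). SPEG, a kinase of striated muscle, had a median of 1.2 CPM at FR8 (lowest 0, highest 5.46) and 8.87 CPM at FR20 (lowest 0.4, highest 29.1) (log2 fold change 2.35 ± 0.50 (SE), adjusted p = 0.0203). The sarcomere gene MYOM1, named outside that rule after its values were seen, was called upward too (20.1 to 60.9 CPM, 1.25 ± 0.27, adjusted p = 0.0208). In the striated muscle list no gene passed, and 14 of 15 tested had positive log2 fold changes, as did 6990 of all 12713 genes. LRRN3 went from a median of 10.7 to 36.6 CPM (1.54 ± 0.31, adjusted p = 0.0169), TTC21A from 0.65 to 1.86 CPM (1.34 ± 0.25, adjusted p = 0.0131) and PSMC3IP from 0.154 to 0.774 CPM (1.997 ± 0.38, adjusted p = 0.0131). All of these were called upward, the last 2 at low levels. Among those called downward, RNF125, a ubiquitin ligase, had a median of 85.4 CPM at FR8 (lowest 25.6, highest 210.5) and 15.3 CPM at FR20 (lowest 9.27, highest 258) (log2 fold change -1.92 ± 0.42 (SE), adjusted p = 0.0208). SLC6A12, the betaine transporter, had a median of 171 CPM at FR8 (lowest 79.9, highest 248) and 69.2 CPM at FR20 (lowest 36, highest 227) (log2 fold change -1.06 ± 0.22 (SE), adjusted p = 0.0203). PPIF, cyclophilin D of the mitochondrial matrix, had a median of 454 CPM at FR8 (lowest 178, highest 994) and 207 CPM at FR20 (lowest 109.8, highest 442) (log2 fold change -1.07 ± 0.25 (SE), adjusted p = 0.0275). AMIGO3 (19.5 to 7.18 CPM, -1.353 ± 0.37, adjusted p = 0.0492), PEBP4 (1.55 to 0.363 CPM, -1.65 ± 0.33, adjusted p = 0.0169) and OLFM3 (0.935 to 0.218 CPM, -1.86 ± 0.47, adjusted p = 0.0385) were the others. Leaving out 1 animal at a time, AMIGO3 was called in 5 of 18 fits (adjusted p up to 0.101, without animal 14) and OLFM3 in 6 of 18 (up to 0.0803, without animal 16). PPIF was called in 10 of 18 (up to 0.0605, without animal 14). SLC6A12 was called in 16 of 18, lost where its fold fell below 2 (adjusted p up to 0.045).

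Whether the change differed with feeding was tested as the FS change minus the CPF change. Of 12943 genes, 0 were called by edgeR (0%) and 0 by DESeq2, and the numbers at an unadjusted p under 0.05 were 488 and 669. The test had 4 CPF animals, which leaves wide errors. NR1D2 changed by a log2 of 1.502 ± 0.87 in CPF animals, from 0.88 to 2.57, and the difference was 0.88 ± 0.98. BMAL1 changed by -1.02 ± 0.84 in CPF animals, with a difference of -1.37 ± 0.95. FGF21 changed by 1.18 ± 1.26 in CPF animals, with a difference of 1.353 ± 1.30. SLC16A13 changed by -1.17 ± 0.40, with a difference of -0.28 ± 0.44. NQO1 changed by 0.21 ± 0.82, with a difference of 1.33 ± 0.88.

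Whether the change differed with survival was tested as the change in the 3 animals that died minus that in the 15 that lived. Again 0 of 12713 genes were called (0%) by edgeR, with 473 at an unadjusted p under 0.05, and DESeq2 called 2. The log2 change of FGF21 was 3.07 ± 0.83 in animals that died and 2.39 ± 0.40 in those that lived, a difference of 0.68 ± 0.88. For NR1D2 the changes were 3.08 ± 1.18 and 2.20 ± 0.57, a difference of 0.88 ± 1.25. Animals 9, 17, 19 and 21 are all among those that lived.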

How the data were processed

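Liver RNA of 23 pigs was sequenced from poly(A) libraries. By the submitters' processing notes, the authors aligned the reads to Sscrofa10.2 with TopHat 1.5.0 and deposited HTSeq counts per Ensembl gene, not normalized. The counts of 36 FS libraries were analyzed here with edgeR 4.0.16 (TMM, a sum of CPM of at least 10, quasi-likelihood F test, a term for each animal, Benjamini-Hochberg adjustment). CPM are TMM-scaled unless named otherwise, and SE are of the log2 fold change. The animal code pairs the libraries: after the time means were removed, FR8 and FR20 libraries of an animal correlated with a median of 0.27 (15 of 18 pairs over 0.1), those of different animals with -0.00392 (69 of 306 pairs over 0.1). The ranges overlapped, from -0.0141 to 0.414 for the same animal and from -0.339 to 0.469 for different animals. DESeq2 1.42.0 and limma 3.58.1 (R 4.3.3) served as alternatives, and Python 3.11.15 for the rest. The edgeR, limma voom and DESeq2 tests of FR20 against FR8 were also run on simulated counts for the 36 FS libraries. The tests of differing changes (FS minus CPF, died minus lived) and the permutation test were not. Gene symbols were found for 12504 of 25322 identifiers, through supplementary tables of the study or a reference list of names. Identifiers sharing a symbol (PER2 and CRP among others) were kept apart. COL1A2 and PLIN1 each had a further identifier at 3 counts or fewer in each of the 36 libraries.

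Genes named were those with the smallest p (10 each way) or largest fold (5 each way, mean of at least 5 CPM) among called genes with a symbol, up to 4 called members each way or, with none, the 2 of largest change in each of 48 lists, all clock members, the 2 most abundant cell type markers, and, beyond that rule, list members named after their values were seen. Members and lists were chosen with earlier results of these data known. Strand setting is not given in the sources used here, so overlapping genes can share counts. Some genes that the rule names are not reported here.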

Additional observations from a re-analysis of the deposited data

How the results depend on the processing

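The 97 genes called between FR8 and FR20 became 297 with DESeq2's Wald test, 234 with edgeR's likelihood ratio test and 638 with limma voom and quality weights. They became 28 in the animals labelled Lived only and 364 by the adjusted p alone. Leaving out each animal in turn gave 38 to 238. Sets of animals left out after seeing the data gave 637 without 17, 19 and 21 and 581 without 11, 17, 19 and 21. The cause of these moves was not tested. Without the animal block, ignoring the pairing, the count was 126. RLE scaling (92), a lower filter at a CPM sum of 3 (91), filterByExpr (75), no filter beyond 1 count (72), 3 times in 1 fit (139), all usable libraries in 1 fit (126), a median within-animal change of at least 1 (94) and the genes of the gap tested without animal 11 (114, added after seeing the data) stayed within 1.5 times of 97. Of 131 named genes, 34 were called, and all 34 kept their direction in each of the 32 alternatives that tested them. Leaving out each animal in turn, 19 of the 34 stayed called in every fit. In the animals labelled Lived, 18 of them were no longer called. The FS minus CPF count stayed at 0 in every alternative run. The count for animals that died minus lived was 0 in all but 2, with 2 genes under DESeq2 and 1 under the likelihood ratio test. Depth limits genes such as MPO and PSMC3IP, with medians under 1 CPM at both times.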

Other observations

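A set of 7 genes moved the same way in every animal measured, and it was picked after their values were seen. Besides THBS2 and ASNS, ITGB1, the integrin β1 chain that binds matrix, was higher at FR20 in 18 of 18 animals (279 to 354 CPM, log2 fold change 0.39 ± 0.07 (SE), adjusted p = 0.00876). Lower in 18 of 18 were AP1M1, a clathrin adaptor subunit (99.1 to 71.7 CPM, -0.48 ± 0.07, adjusted p = 0.00341), RNF5, a ubiquitin ligase of the endoplasmic reticulum (76 to 55.2 CPM, -0.53 ± 0.08, adjusted p = 0.00413), and PEX5, the import receptor of peroxisomes (62.5 to 55.8 CPM, -0.30 ± 0.07, adjusted p = 0.0267). APOC3 was lower in 17 of 17.

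Genes among the called that stand in no list include DHRS4, a retinol and ketone reductase (274 to 1190 CPM, 1.68 ± 0.42, adjusted p = 0.0385), ARG2, the mitochondrial arginase (11.5 to 68.3 CPM, 1.74 ± 0.45, adjusted p = 0.0419), LPO, lactoperoxidase (3.03 to 12.9 CPM, 1.44 ± 0.31, adjusted p = 0.0203), and the Wnt antagonists SFRP1 (7.68 to 18.2 CPM, 1.06 ± 0.27, adjusted p = 0.0392) and SFRP2 (2.59 ± 0.63, adjusted p = 0.0365). COL15A1 (2.06 ± 0.53, adjusted p = 0.0424), CTHRC1 (1.88 ± 0.48, adjusted p = 0.0392) and CCDC80 (16.4 to 29.3 CPM, 1.11 ± 0.29, adjusted p = 0.0415), which encode matrix proteins outside the fixed matrix list, were called upward too. They too were named after their values were seen.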
